A study of Mus musculus with 6 samples.

Results

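The mitochondrial genome encodes several core subunits of respiratory complex I, and the mRNAs of 6 of these, mt-Nd1, mt-Nd2, mt-Nd3, mt-Nd4, mt-Nd4l, and mt-Nd5, were examined by RNA bisulfite sequencing. Members were all cytosines on the plus strand of mitochondrial DNA that the deposited lists assigned to one of these genes and that at least 20 reads covered. They came to 1099 positions in at least 1 library, of 4920022 such cytosines in the whole series, and 921 of them reached that coverage in each of the 6 libraries. All 921 lay in 4 genes, mt-Nd1 (230 positions), mt-Nd2 (174), mt-Nd4 (143), and mt-Nd5 (374), and no position of mt-Nd3 or mt-Nd4l was listed in any library.

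The libraries were made from cortical neurons of WT C57BL/6 mouse embryos at E16.5, pooled over males and females, and grown for 7 days in vitro. All cultures, the 0 h controls included, were first silenced overnight with 1 μM TTX and 100 μM DL-AP5, and were then kept in 55 mM KCl for 2 h or 6 h or harvested without it (0 h), with 2 replicates per time point. The RNA was selected for poly(A) tails before bisulfite treatment, which turns an unmodified cytosine into a base read as T and leaves m5C read as C. The unconverted level of a position is the share of C reads among its C and T reads, and it holds both m5C and cytosines that escaped conversion.

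Complex I takes electrons from NADH, passes them to ubiquinone, and pumps protons across the inner mitochondrial membrane. The mt-Nd subunits form the core of its membrane arm, while the catalytic core of its peripheral arm and the accessory subunits are made from nuclear genes. Mitochondrial mRNAs are cut from long transcripts that span nearly a whole strand, so RNA complementary to a gene is made too, and mt-Nd6 alone among the mt-Nd genes is read from the other strand.

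The summed coverage of listed cytosines was 1637706778 to 2352246636 reads per library. Over deeply covered cytosines (5000 reads or more, level under 1%), the unconverted share was 0.0837% to 0.0869% in 5 libraries and 0.115% in 6 h replicate 1, which stood apart in the results on the members as well. Fos, an immediate early gene, had a median coverage of 31 and 26 reads at 0 h, 4891 and 4910 after 2 h, and 3124 and 1512.5 after 6 h. All 6 neuronal markers and all 4 astrocyte markers were listed in every library, as were 3 of 4 markers of the oligodendrocyte lineage and 1 of 4 of microglia, while neither endothelial marker was. Astrocyte RNA was thus present (Slc1a3, a glutamate transporter, had a median coverage of 2059 to 3098.5 reads) beside that of neurons (Tubb3, a neuronal tubulin, 6164.5 to 16454.5). The part of glia in the values below was not tested.

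The 4 measured mRNAs differed widely in their unconverted level, and the level was highest in mt-Nd4 and lowest in mt-Nd1. In mt-Nd1, the level over the shared positions was 3.46% and 2.89% at 0 h, 2.75% and 2.80% after 2 h, and 6.47% and 2.24% after 6 h (replicates 1 and 2). In mt-Nd2 it was 11.6% and 10.8% at 0 h, 8.46% and 8.22% after 2 h, and 19.7% and 6.13% after 6 h. In mt-Nd1 and in mt-Nd2, the 0 h and 2 h libraries did not overlap. Such a lack of overlap was seen at 836 of the 2527 positions of the series tested in 0 h vs. 2 h. The 6 h libraries of mt-Nd2 lay on either side of all others. In mt-Nd4 the level was 40.8% and 29.7% at 0 h, 30.8% and 37.2% after 2 h, and 58.8% and 27.4% after 6 h. In mt-Nd5 it was 25.4% and 23.4% at 0 h, 19.8% and 31.2% after 2 h, and 32.8% and 15.5% after 6 h. In each of the 4 genes, 6 h replicate 1 was the highest library and 6 h replicate 2 the lowest. The order of the genes, mt-Nd1 below mt-Nd2 below mt-Nd5 below mt-Nd4, was the same in all 6 libraries for this level; by the median over positions, mt-Nd5 lay above mt-Nd4 in 0 h replicate 2 and 2 h replicate 2.

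**Figure D1:**
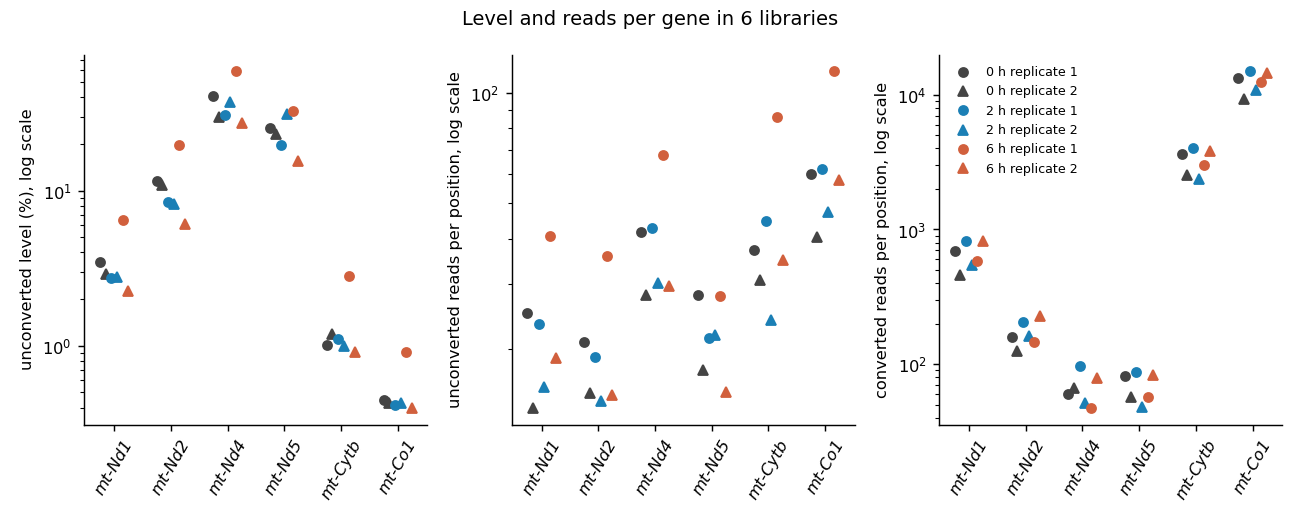
Unconverted level, unconverted reads per position, and converted reads per position (all on log axes) of mt-Nd1, mt-Nd2, mt-Nd4, mt-Nd5, and, for comparison, mt-Cytb and mt-Co1, over positions with 20 or more reads in each of the 6 libraries. Each symbol is 1 library; converted reads span from 47.5 per position (mt-Nd4, 6 h replicate 1) to 14905 (mt-Co1, 2 h replicate 1), a far wider range than the unconverted reads.

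The genes differed far more in converted than in unconverted reads. The mean number of unconverted reads per position at 0 h was 19.4 ± 7.92 in mt-Nd1, 18.0 ± 4.02 in mt-Nd2, 34.8 ± 9.62 in mt-Nd4, and 22.7 ± 7.40 in mt-Nd5 (SD, n = 2). Converted reads per position at 0 h were 580 ± 165 in mt-Nd1, 142 ± 24.5 in mt-Nd2, 63.4 ± 4.15 in mt-Nd4, and 69.7 ± 17.4 in mt-Nd5 (SD, n = 2). A high level in these genes thus stood beside a low number of converted reads.

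The same was seen between stretches of mt-Nd1 and mt-Nd2. In mt-Nd1, the first 150 bases had a median of 54 to 125 converted and 11 to 45 unconverted reads per position over the 6 libraries, and a median level of 13.6% to 46.6%. Between bases 451 and 600 of mt-Nd1, converted reads were 1043 to 1858, unconverted reads were 18.5 to 47.5, and the median level was 1.0% to 3.3%. In mt-Nd2, the stretch from base 301 to 450 had 297.5 to 520 converted reads and a level of 3.3% to 10.1%, while the stretch from base 451 to 600 had 7 to 36 converted reads and a level of 28.8% to 84.6%. Unconverted reads were 17 to 37 in the former and 14 to 41 in the latter, so that both ranges overlapped. From one listed position to the next, the number of unconverted reads changed by a median of only 1 or 2 reads in every member gene and library.

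**Figure D2:**
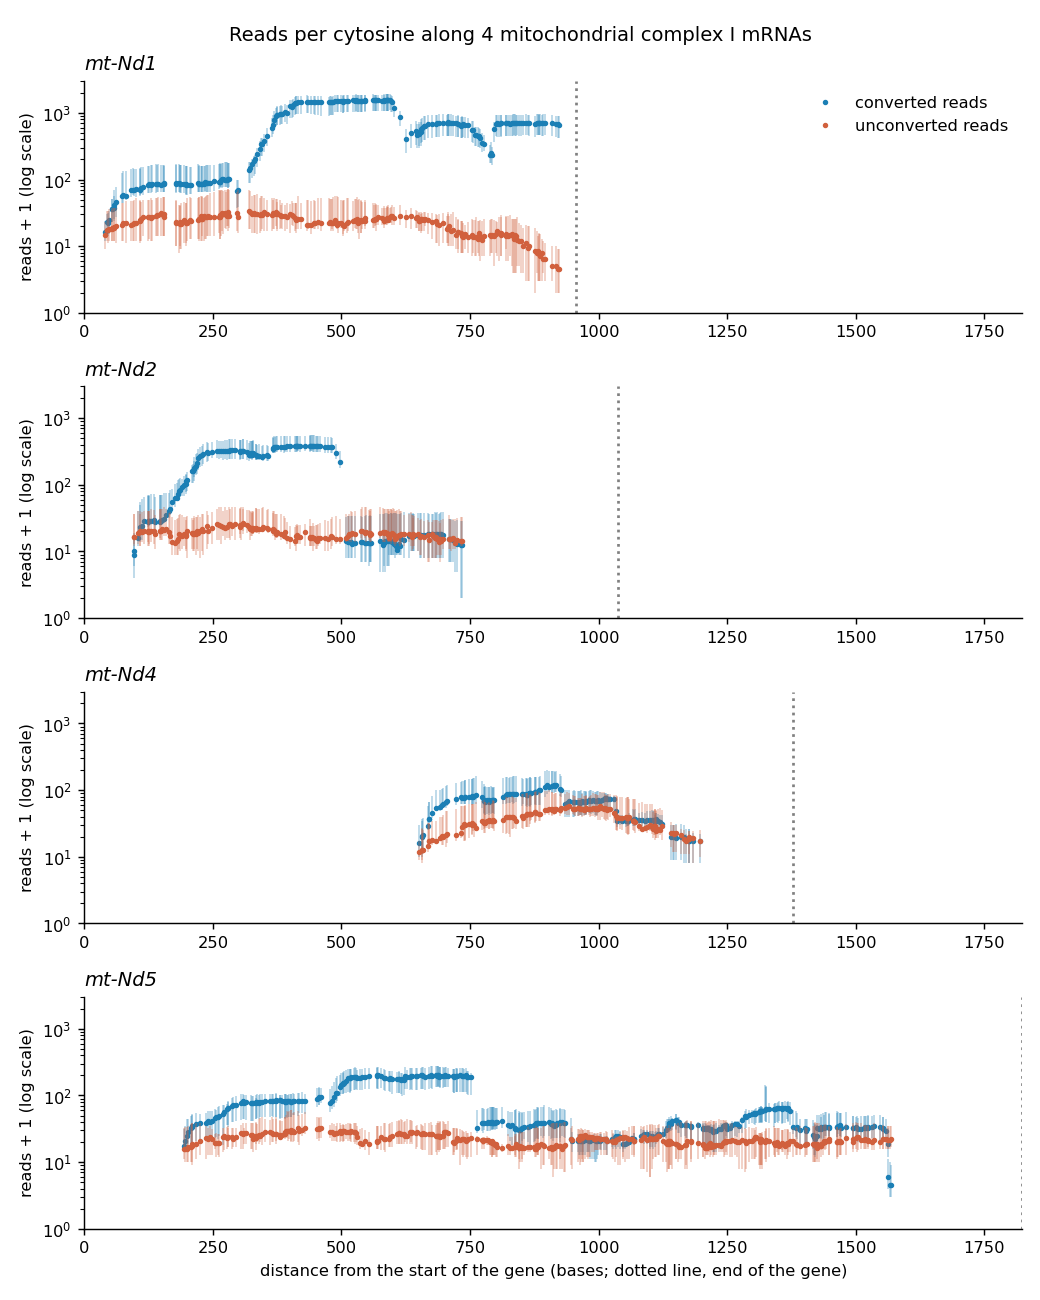
Converted and unconverted reads (plus 1, log axis) at each position with 20 or more reads in every library, against the distance from the start of the gene in bases. Points are medians and lines the range over the 6 libraries; in mt-Nd1 the converted reads reach a median of 1043 to 1858 between bases 451 and 600, where the unconverted reads are at 18.5 to 47.5, while in mt-Nd4 the unconverted reads rise with the coverage (Spearman's rho of 0.70 to 0.92 within a library).

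In mt-Nd4, no position before MT 10803 reached 20 reads, and none of those that did had a level under 10% in any library. Its median level was 19.4% to 48.3% between bases 601 and 750 and 37.5% to 68.0% between bases 1051 and 1200. In mt-Nd5, the lowest stretch was that from base 601 to 750, with a level of 7.4% to 17.9% and 120 to 259 converted reads. Across the positions of a gene, Spearman's rho between level and coverage within a library was -0.75 to -0.89 in mt-Nd1 and -0.24 to -0.64 in mt-Nd4. These positions share reads and the level has the coverage in its denominator, so both are descriptions. Between unconverted reads and coverage, rho was 0.70 to 0.92 in mt-Nd4, -0.09 to 0.60 in mt-Nd1, -0.07 to 0.58 in mt-Nd2, and -0.28 to 0.67 in mt-Nd5. At some positions with 20 or more reads every read was unconverted. In mt-Nd2 there were 51 such positions in 6 h replicate 1, 2 in 2 h replicate 1, and 0 in the other libraries. In mt-Nd5 there were 7 and 6 at 0 h, 53 and 11 after 2 h, and 51 and 10 after 6 h, and mt-Nd1 and mt-Nd4 had none.

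The positions with the highest mean level over the 6 libraries were neighbours in mt-Nd1, mt-Nd2, and mt-Nd5, whose sequences overlap, but not in mt-Nd4. The 2 highest of each gene are given below with 10 bases on either side, read 5′ to 3′ from the plus strand of the mitochondrial genome (GRCm38), with the measured cytosine in capitals. All lie in coding exons.
mt-Nd1 at MT 2790: cgtccccattCtaatcgccat
mt-Nd1 at MT 2795: ccattctaatCgccatagcct
mt-Nd2 at MT 4009: tatgagtaggCctggaattca
mt-Nd2 at MT 4010: atgagtaggcCtggaattcag
mt-Nd4 at MT 11306: gagaattattCattaccatat
mt-Nd4 at MT 11211: ccgaggacttCaaatggtctt
mt-Nd5 at MT 13309: tcatccttctCaactttactg
mt-Nd5 at MT 13307: attcatccttCtcaactttac

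The highest of all was MT 13309 in mt-Nd5, at 84.6% and 87.5% at 0 h, 94.4% and 87.0% after 2 h, and 78.9% and 66.7% after 6 h, with 23 to 38 reads per library. MT 4009 in mt-Nd2 was read at 60.9% and 85.0% at 0 h, 66.7% and 44.0% after 2 h, and 83.3% and 65.0% after 6 h, with 20 to 42 reads. MT 11306 in mt-Nd4 had a mean level of 53.2% ± 13.6 and MT 2790 in mt-Nd1 one of 45.4% ± 13.8 (SD over 6 libraries). These cytosines lay where few reads covered the gene, and the 6 h replicates of MT 2790 were at 66.7% and 30.3%.

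Set against its neighbours, a position's level varied little with its place in the codon. Over the 4 genes, the median level was 26.1%, 28.1%, and 30.6% at cytosines in codon positions 1, 2, and 3 (274, 316, and 331 positions), and the median difference from the 10 nearest listed positions on each side was 0.01, -0.02, and 0.02 percentage points. Before A, C, and T the median level was 29.5%, 28.1%, and 28.9%, and it was 25.0% before G (66 positions). Within mt-Nd2 the medians lay further apart, at 9.10%, 29.5%, and 17.6% by codon position and from 7.31% before G (7 positions) to 37.5% before C (43 positions). Against their neighbours, these groups of mt-Nd2 differed by a median of only -0.10 to 0.07 percentage points. A GGG triplet from the second to the fourth base downstream occurred at 4 of the 921 positions. Only 3 positions of mt-Nd2 and 3 of mt-Nd5, and none of mt-Nd1 or mt-Nd4, exceeded the median of these neighbours by 10 percentage points or more in every library; this measure was chosen after the values were seen.

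The standard filter asked for a coverage of 20 or more, a level of 10% or more, and 6 or more unconverted reads. In both replicates, 684 of 930 member positions passed at 0 h (73.5%), 624 of 939 after 2 h (66.5%), and 663 of 949 after 6 h (69.9%). Over the whole series the filter was passed by 0.355%, 0.328%, and 0.290% of positions, and the members made up 29.9%, 27.9%, and 26.0% of all that passed. In mt-Nd4 all 151, 152, and 146 positions passed, and in mt-Nd5 359 of 375, 314 of 378, and 339 of 389. In mt-Nd1 the filter was passed by 75 of 230, 69 of 231, and 79 of 236.

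Every passing member position stood in a run of at least 3 passing positions at most 20 bases apart, and several of these runs were long. Within runs, 80% to 100% of the cytosines passed, and the shortest run spanned 4 bases. In mt-Nd4, 1 run from MT 10816 to 11408 at 0 h took in 151 of the 151 cytosines of that stretch, and at 6 h 1 run from MT 10806 to 11363 took in all 146. In mt-Nd5, the longest run at 0 h and at 2 h reached from MT 12505 to 13309, over 805 bases, with all 231 cytosines passing in both replicates, and at 6 h 229 of 232 passed over 808 bases. In mt-Nd2 a run from MT 4421 to 4647 held 63 of 63 cytosines at 0 h. The filter of the study that removes reads with several unconverted cytosines acts on single reads and could not be applied to these lists.

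For comparison, positions of mt-Co1 (complex IV) and mt-Cytb (complex III), the genes of the other complexes with positions that reached 20 reads in every library, were summed in the same way. The complex I mRNAs had a higher level in 6 of 6 libraries, 9.74% ± 3.40 against 0.649% ± 0.285 over 605 positions (SD, n = 6), a difference of 9.09 percentage points (two-sided exact sign-flip test, p = 0.03125, the smallest that 6 libraries allow). The difference was 1.81 percentage points without positions that reached 10% in any library, which leaves only mt-Nd1 and mt-Nd2 of the complex I mRNAs, and 26.2 as a median over positions, in the same direction in 6 of 6 libraries. By number of unconverted reads the order turned. The complex I mRNAs had 17.8 to 38.7 unconverted reads per position per library and the others 36.0 to 101.8, a difference of -29.7 reads (exact p = 0.03125; this measure was added after the data were seen). Converted reads per position were 173 to 295 in the complex I mRNAs and 6309 to 10001 in the others. The exact p-values cover the spread between libraries, not between genes, and the others were only mt-Co1 and mt-Cytb. mt-Co3 (complex IV) was not in this comparison. It had 2 to 26 positions with 20 or more reads per library, at a median coverage of 45 to 126 reads and a level of 0.815% to 3.33%.

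The nuclear-encoded subunits of complex I were looked at with the same filter. Of 36 genes listed, 31 to 34 had positions covered by at least 20 reads in both replicates of a time point. None of 1724 positions passed the filter at 0 h, 1 of 1909 at 2 h (in Ndufa10), and none of 2177 at 6 h. Over all positions the share was 0.355%, 0.328%, and 0.290%, and the difference was not tested.

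The listed cytosines of the strand opposite to these genes had a higher median coverage than those of the gene strand itself. Over mt-Nd5, up to its overlap with mt-Nd6, the median coverage of listed cytosines on the opposite strand was 3768 to 6887.5 reads per library, 61.7 to 117 times that of the gene strand. Over mt-Nd4 it was 3205 to 4779 reads, 30.2 to 41.1 times as high. Over mt-Nd2 the ratio was 9.52 to 19.7 and over mt-Nd1 1.33 to 1.97. No position opposite mt-Nd1, mt-Nd2, or mt-Nd5 passed the standard filter in any library. The lists hold only cytosines with at least 1 unconverted read, and fewer cytosines were listed on the opposite strand. Where the level is low, a cytosine with more reads is more likely to be listed, which raises the median coverage there. The part of this in the ratios was not tested.

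**Figure D3:**
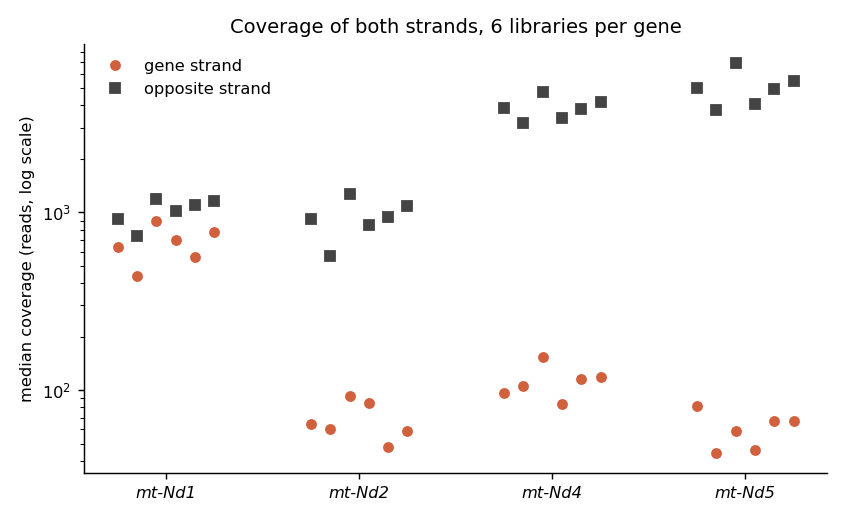
Median coverage (reads, log axis) of listed cytosines on the gene strand and on the opposite strand of mt-Nd1, mt-Nd2, mt-Nd4, and mt-Nd5. The 6 symbols of a kind are the libraries, in the order 0 h, 2 h, 6 h with replicate 1 first; in mt-Nd5 the opposite strand lies at 3768 to 6887.5 reads, and in every gene and library it lies above the gene strand.

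Stretches of several members recur in nuclear DNA. The longest nuclear copy in GRCm38, on chromosome 1 from 24611535 to 24616188, matched MT 6390 to 11042 at 99.936% identity, which takes in the whole of mt-Nd3 and mt-Nd4l and 63.6% of mt-Nd4. All 77 cytosines of mt-Nd3 and all 89 of mt-Nd4l lay in this copy, and none was listed. In mt-Nd2, 49.2% of the gene was matched at 90% identity or more, chiefly by a copy on chromosome 2 at 97.4%. The median coverage of mt-Nd2 was 22 to 45 reads per library within the matched stretch and 227.5 to 408 outside it, with median levels of 28.3% to 91.7% and 5.14% to 14.2%. In mt-Nd5, 61.4% of the gene was matched, with 37 to 60 reads inside and 81.5 to 131.5 outside, and levels of 25.7% to 52.5% and 15.3% to 40.0%. In mt-Nd4 the coverage was 82 to 160 reads inside and 65.5 to 112.5 outside. The matched stretch of mt-Nd4 had the lower median level, 22.3% to 52.7% against 34.6% to 65.8%. mt-Nd1 had no such copy. The part of these copies in the coverage and in the levels was not tested.

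Replicates of one time point differed at the most member positions at 6 h. Between the replicates of one time point, Fisher's exact test on reads (Benjamini-Hochberg adjusted over all positions passing in both) called 0 of 684 member positions at 0 h, 69 of 624 after 2 h, and 402 of 663 after 6 h. Over the whole series it called 0.175%, 3.80%, and 19.8%. All 402 at 6 h were higher in replicate 1, and the median difference over the 663 tested members was 27.2 percentage points. Of the 69 at 2 h, 67 were higher in replicate 2.

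**Figure D4:**
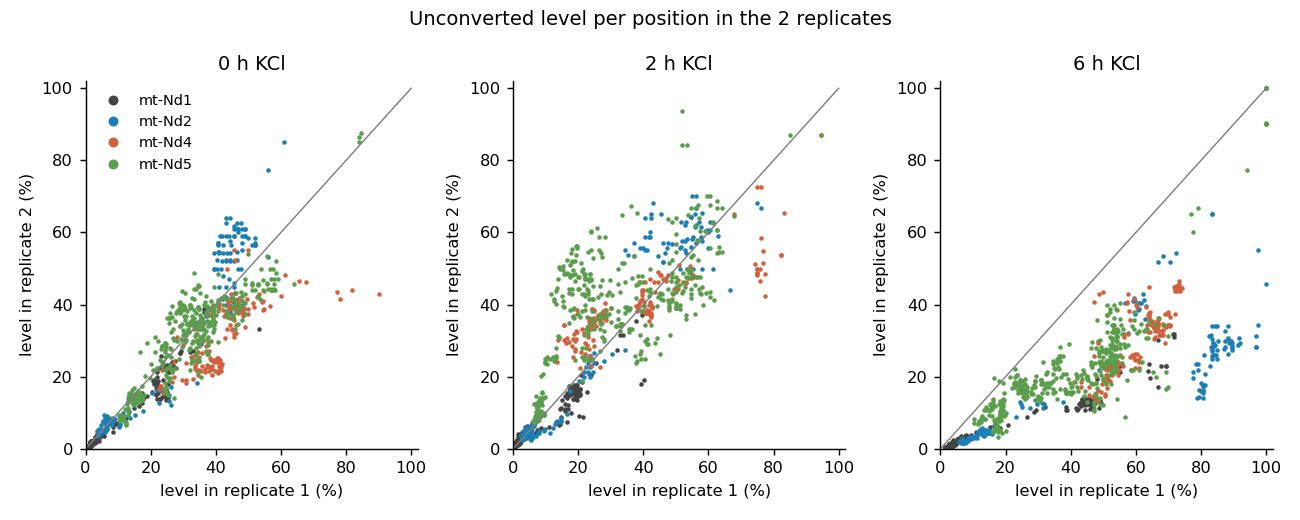
Unconverted level (%) of each member position in replicate 1 (horizontal axis) and replicate 2 (vertical axis) for each time point, coloured by gene, with the line of equal levels. At 6 h nearly all points lie under the line. Over the 663 positions that passed the standard filter in both 6 h replicates, the median difference was 27.2 percentage points.

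The change with depolarization was first tested at each position, on reads summed over replicates. In 0 h vs. 2 h, 37 of 692 member positions were called, all lower at 2 h, with 19 in mt-Nd2, 17 in mt-Nd5, and 1 in mt-Nd4. Over the series 10.6% of 2527 positions were called, 8.51% higher and 2.06% lower. In 0 h vs. 6 h, 22 of 710 were called, 3 higher at 6 h, in mt-Nd4, and 19 lower, in mt-Nd5, where the series had 6.91% in all, 5.07% higher and 1.84% lower. In 2 h vs. 6 h, 83 of 679 were called, 73 higher at 6 h and 10 lower, where the series had 6.06% higher and 5.92% lower (12% called). The rises were in mt-Nd1 (14), mt-Nd2 (29), and mt-Nd4 (30), and the falls in mt-Nd5.

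These calls did not hold once the spread between libraries entered the test. With limma on each library, none of the 692, 710, and 679 member positions was called (70, 2, and 17 at an unadjusted p of 0.05), against 4.35%, 0.864%, and 0.00% of the series. Without 6 h replicate 1, 60 of 713 positions were called in 0 h vs. 6 h (6.33% over the series) and 76 of 682 in 2 h vs. 6 h (6.90%), all lower at 6 h. Without 6 h replicate 2, 328 of 859 and 404 of 866 were called, of which 325 and 403 were higher at 6 h, so that the direction rested on which 6 h library was kept. The share called over the series rose in that setting too, to 22.7% and 27.6%. The direction turned with other libraries as well. Without 0 h replicate 1, 21 of 25 called in 0 h vs. 6 h were higher at 6 h (5.14% called over the series), and without 2 h replicate 1, 73 of 111 called in 2 h vs. 6 h were lower (10.5%). In 0 h vs. 2 h, no member was called without 0 h replicate 1 (6.66% over the series), 16 without 0 h replicate 2 (6.22%), 13 without 2 h replicate 1 (8.66%), and 66 without 2 h replicate 2 (9.79%). The count was 13 in 0 h vs. 6 h without 0 h replicate 2 (3.96%), and in 2 h vs. 6 h it was 76 without 2 h replicate 2 (10.1%). With the replicate number as a stratum, the counts were 39, 46, and 194, where 10.7%, 8.79%, and 17.2% of the series were called. The stratified test called 27 higher and 19 lower in 0 h vs. 6 h, against 3 and 19 without strata. With limma and the replicate block they were 4, 0, and 0, where 5.94%, 1.39%, and 2.27% of the series were called.

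The positions with the largest called differences that moved the same way in both pairs of same-numbered replicates lay in short stretches, and 1 of each is shown with the measured cytosine in capitals. The numbers served here only to name positions, and none of the 10 called falls of mt-Nd5 in 2 h vs. 6 h met this rule.
mt-Nd2 at MT 4018: gcctggaattCagcctactag
mt-Nd2 at MT 4022: ggaattcagcCtactagcaat
mt-Nd4 at MT 11236: cttatagccaCatgatgactg
mt-Nd5 at MT 12142: ctcacctcagCcaacaacata

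At MT 4018 in mt-Nd2 the level was 55.9% and 53.1% at 0 h, 34.4% and 27.3% after 2 h, and 72.2% and 54.2% after 6 h. The fall from 0 h to 2 h came to 23.7 percentage points between the means of the replicates (Fisher's exact test on summed reads, adjusted p = 0.0392). The libraries of the 2 times did not overlap. That held for 257 of the 692 member positions and 836 of the 2527 positions of the series tested in 0 h vs. 2 h. The choice of MT 4018 by a large fall in both pairs favoured it. The unconverted reads at MT 4018 were 19 and 17 at 0 h and 21 and 12 after 2 h, whereas the converted reads were 15 and 15 before and 40 and 32 after. At MT 4022, 4 bases on, the level was 28.0% and 24.4% at 2 h and 68.4% and 53.6% at 6 h (adjusted p = 8.34e-06). MT 4022 had 54 and 34 converted reads at 2 h and 18 and 13 at 6 h. In both replicates of both positions, the converted reads differed more between the times than the unconverted reads did; this difference was not tested.

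At MT 12142 in mt-Nd5 the level was 40.0% and 37.2% at 0 h, 19.2% and 56.2% after 2 h, and 23.9% and 16.2% after 6 h. The fall from 0 h to 6 h was 18.5 percentage points between the means of the replicates (Fisher's exact test on summed reads, adjusted p = 0.000725). The 2 h replicates lay further apart than any of the 0 h and 6 h libraries did. At MT 11236 in mt-Nd4 the level was 39.3% and 37.9% at 0 h, 50.7% and 44.3% after 2 h, and 72.0% and 43.7% after 6 h (0 h vs. 6 h, adjusted p = 0.00540). The 6 h replicates of MT 11236 lay further apart than the 0 h libraries lay from 6 h replicate 2.

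Summed over each gene, no difference in level between time points was called. None of the 4 genes was called by limma in any of the comparisons, where 0.290%, 0.145%, and 0.00% of 2070 genes were called over the series (155, 323, and 259 genes at an unadjusted p of 0.05). The largest difference was in mt-Nd4, 0.51 ± 0.52 (log2 odds of an unconverted read, 6 h minus 2 h, SE; limma adjusted p = 0.675), which became 1.47 without 6 h replicate 2 and -0.44 without 6 h replicate 1. In mt-Nd2 it was -0.47 ± 0.48 at 2 h against 0 h (limma adjusted p = 0.984) and 0.48 ± 0.48 at 6 h against 2 h (limma adjusted p = 0.674). The standard errors of 0.42 to 0.52 take in the spread of the 6 h replicates. Without 6 h replicate 1 in the fit, the fall of mt-Nd2 from 0 h to 2 h had a standard error of 0.22 and was still not called. This fall of the gene sum was not seen along the whole gene. Between bases 1 and 150 the median level was 44.2% and 41.5% at 0 h and 30.4% and 23.0% after 2 h. Between bases 451 and 600 it was 46.7% and 59.1% at 0 h and 54.5% and 58.1% after 2 h. The median change of the mt-Nd2 positions tested singly was 1.01 percentage points upward. Without 6 h replicate 2, mt-Nd1 and mt-Nd2 were called in 2 h vs. 6 h, at 1.28 and 1.43 (limma adjusted p = 0.0458 and 0.0457), where 7.05% of all genes were called. In that fit 6 h is a single library, assumed to vary like the other time points.

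The amount of the mRNAs was followed by their coverage per unit of library coverage; in bulk samples fewer cells and less RNA per cell cannot be told apart. None of the 4 members was called by limma in any comparison, while 19.4%, 56.6%, and 45.3% of 2075 genes were called over the series. In 0 h vs. 6 h the log2 difference was 0.05 ± 0.14 for mt-Nd1, 0.16 ± 0.20 for mt-Nd2, -0.07 ± 0.26 for mt-Nd4, and -0.24 ± 0.29 for mt-Nd5 (SE; limma adjusted p = 0.760, 0.534, 0.840, and 0.506). In 0 h vs. 2 h they were 0.05 ± 0.14, 0.13 ± 0.20, -0.07 ± 0.26, and -0.23 ± 0.29.

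The coverage of the nuclear-encoded subunits was tested in the same way. Of 36 genes listed, 22 could be tested, of which 0 fell in 0 h vs. 2 h, 16 in 0 h vs. 6 h, and 14 from 2 h on, with none higher, where 10.7%, 40.1%, and 32.7% of all genes fell. All 6 tested genes of the catalytic core were lower at 6 h than at 0 h. Ndufs1, which carries iron-sulfur clusters, fell by 0.98 ± 0.11 on the log2 scale (SE; limma adjusted p = 1.95e-11). Ndufa6, an accessory subunit, fell by 0.97 ± 0.11 (limma adjusted p = 8.67e-11). The median over the 22 genes in 0 h vs. 6 h was -0.46, beside -0.16 over all genes. Scaled by the median ratio over genes, which shifts that median to 0.01 and turns the split of all called genes from 342 higher and 832 lower to 628 and 641, 13 of the 22 were lower. Without 0 h replicate 2, the median over the 22 genes in 0 h vs. 6 h was -0.36, beside -0.11 over all genes. In 2 h vs. 6 h the median was -0.30 without 6 h replicate 1, beside -0.07 over all genes. In both of these settings fewer of the 22 were called lower, as were fewer of all genes. Whether the nuclear and the mitochondrial genes differed in their change was not tested.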

How the data were processed

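RNA BS-seq lists of 6 libraries were used. The authors aligned the reads to GRCm38 (mm10) with meRanTK, called cytosines, and deposited, per position, raw read counts (covering, unconverted, and other-base reads) and the level as a fraction. R 4.1.1 is named in the submitters' processing notes. Only cytosines with at least 10 reads and 1 unconverted read are listed. Members and gene lists were chosen with earlier results of these data known.

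Converted reads were coverage minus unconverted and other-base reads. Reads summed over replicates were compared per position by Fisher's exact test (two-sided) where they passed the standard filter in both replicates of at least 1 time point and had at least 10 reads in 4 libraries, and were called at an adjusted p of 0.05 (Benjamini-Hochberg over the series). Gene sums (pseudocount 0.5, at least 10 positions) and log2 coverage were tested with limma 3.58.1 in R 4.3.3. Nuclear copies (at least 200 bases) were found with blastn 2.17.0, and genes were taken from GENCODE. Named were the 2 highest positions of a gene, the 3 largest called rises and falls of a comparison, and runs of at least 3 passing positions at most 20 bases apart. Replicate numbers come from the labels. The study calls the replicates biological, and read tests cover counting error only. Other minimums, tests, and scalings, the replicate block, and leaving out each library were tried. Fisher's exact test per position and limma on gene sums were each checked on data simulated from 0 h vs. 2 h with known changes. The reads for Fisher's exact test were simulated without spread between replicates, so that false calls from such spread could not be seen. The changes simulated for limma were larger than the differences found in the member genes.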

Additional observations from a re-analysis of the deposited data

Results flagged for a closer look

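Unconverted reads were also listed outside the main measurement, on the strand opposite to the genes. Over mt-Nd4, the median unconverted level of listed cytosines on that strand was 1.42% to 3.32% over the 6 libraries, and over mt-Nd5 it was 0.863% to 1.63%. Opposite mt-Nd1 it was 0.0989% to 0.612%, opposite mt-Nd2 0.133% to 0.364%, opposite mt-Co1 0.154% to 0.812%, and opposite mt-Cytb 0.328% to 0.559%. Only cytosines with at least 1 unconverted read are listed, so that these medians lie above 0 by construction. Opposite mt-Nd4, 13 and 4 positions passed the standard filter at 0 h, 12 and 10 after 2 h, and 0 and 0 after 6 h; this difference was not tested. Single libraries were not tested as outliers of their time point, which holds only 2.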

How the results depend on the processing

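No member gene was called for coverage under any alternative, nor for level except in 2 h vs. 6 h without 6 h replicate 2, where 2 were (7.05% of all genes were called). The counts of called member positions moved. Tested over every listed position with 20 reads they were 0 in 0 h vs. 2 h, 11 in 0 h vs. 6 h, and 26 from 2 h to 6 h (0.252%, 0.653%, and 0.672% over the series). With a level minimum of 20% they were 10 in 0 h vs. 2 h (5.60%) and 43 in 2 h vs. 6 h (7.61%), and with a coverage minimum of 50 reads 35 in 0 h vs. 6 h (15.8%). The replicate block (Cochran-Mantel-Haenszel test) gave 39, 46, and 194, limma without the block 0, 0, and 0, and limma with the block 4, 0, and 0. The deviations of same-numbered libraries correlated at 0.262, -0.213, and -0.194 over all positions tested and at 0.088, -0.248, and 0.162 over the members, so that the sign was not the same in each comparison and the numbers were not taken as pairs in the tests. A crossed block, added after the data were seen, gave 24 in 0 h vs. 6 h (6.69%) and 60 in 2 h vs. 6 h (10.8%). Leaving out 1 library gave 0 to 66, 13 to 328, and 76 to 404 positions. The cause was not tested.

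The difference between complex I and the other mRNAs was 7.97 to 9.84 percentage points without 1 library (5 libraries cannot give an exact p under 0.0625), 6.69 with a coverage minimum of 50, 1.81 without positions at 10% or more (mt-Nd1 and mt-Nd2 alone), 26.2 as a median over positions (exact p = 0.03125 in each), and -29.7 in unconverted reads per position.

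Of 186 differences of single genes under other settings, 22 changed sign and none was called. For level these were, in 0 h vs. 2 h, mt-Nd4 at 0.056 (plain mean) and 0.019 (without nuclear copies) and mt-Nd5 at -0.18 (coverage of 50) and -0.18 (without nuclear copies). In 0 h vs. 6 h, mt-Nd2 was at -0.026 (coverage of 50), -0.020 (median), -0.21 (without positions at 10%), and -0.0053 (without nuclear copies). For coverage, unconverted reads alone gave -0.15 for mt-Nd1 and -0.26 for mt-Nd2 in 0 h vs. 2 h and 0.13 for mt-Nd4 in 0 h vs. 6 h. Median-ratio scaling gave 0.10 for mt-Nd4 in 0 h vs. 6 h and 0.14 for mt-Nd5 in 2 h vs. 6 h. Median coverage gave 0.0082 for mt-Nd5 in 0 h vs. 6 h, and in 2 h vs. 6 h -0.32, -0.34, -0.037, and 0.29 for mt-Nd1, mt-Nd2, mt-Nd4, and mt-Nd5. Converted reads alone gave -0.018, -0.063, -0.26, and 0.020 for the same genes in 2 h vs. 6 h. Leaving out 1 library turned the sign of some gene differences. The range was, for level in 0 h vs. 2 h, -0.42 to 0.28 (mt-Nd4), -0.39 to 0.49 (mt-Nd5). The range was, for level in 0 h vs. 6 h, -0.51 to 1.08 (mt-Nd1), -0.95 to 0.96 (mt-Nd2), -0.51 to 1.40 (mt-Nd4), -0.81 to 0.60 (mt-Nd5). The range was, for level in 2 h vs. 6 h, -0.31 to 1.28 (mt-Nd1), -0.48 to 1.43 (mt-Nd2), -0.44 to 1.47 (mt-Nd4), -0.86 to 0.55 (mt-Nd5). The range was, for coverage in 0 h vs. 2 h, -0.10 to 0.19 (mt-Nd1), -0.30 to 0.16 (mt-Nd4). The range was, for coverage in 0 h vs. 6 h, -0.16 to 0.26 (mt-Nd1), -0.042 to 0.35 (mt-Nd2), -0.19 to 0.057 (mt-Nd4). The range was, for coverage in 2 h vs. 6 h, -0.20 to 0.22 (mt-Nd1), -0.17 to 0.22 (mt-Nd2), -0.22 to 0.23 (mt-Nd4), -0.17 to 0.16 (mt-Nd5). Depth limits the level of single positions, since at 20 reads 1 read moves it by 5 percentage points.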
